A study of Mus musculus with 12 samples.

Results

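The Kruppel-like factors described here are Klf2, Klf3, Klf4, Klf5 and Klf9, 5 of the 22180 genes measured. Each was read from a probe set annotated to that symbol alone, and each had 1 such probe set on the array. The study set out to profile target genes of ERRb, the orphan receptor that Esrrb encodes, and hybridised 12 arrays (MoGene 2.0 ST) with RNA of K3, an embryonic stem (ES) cell line of the mouse. KO/ERRb-wt cells carried a knockout of Esrrb and had been transduced with a lentivirus expressing ERRb, KO/mock cells carried the knockout without it, and WT/mock cells had an intact gene. Each group held 4 arrays, from 2 clones with 2 arrays each: clones 12-1 and 12-3 for KO/ERRb-wt, 8-3 and 8-4 for KO/mock, and 5-2 and 5-5 for WT/mock. All groups were grown in N2B27 medium with LIF and the inhibitors CH99021 (of GSK3) and PD0325901 (of MEK), and then spent 3 days in N2B27 with both inhibitors and doxycycline, for which the labels list no LIF. The sources used here do not give the promoter of the virus, the position of the lesion or the dose of doxycycline. A difference between groups therefore also holds whatever else distinguishes their 2 clones. Values are log2 expression as deposited by the authors, where a difference of 1 is a 2-fold change.

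Esrrb itself did not follow the labels. Its probe set read 6.99 and 6.76 (clone 12-1) and 6.50 and 6.68 (clone 12-3) on the arrays labelled KO/ERRb-wt. It read 7.48 and 8.00 (clone 8-3) and 7.74 and 7.41 (clone 8-4) on those labelled KO/mock, against 7.38, 7.38, 7.39 and 7.38 on those labelled WT/mock. The groups did not overlap, with the arrays labelled KO/ERRb-wt lowest and those labelled KO/mock highest. For Esrrb, KO/mock minus WT/mock was 0.28 ± 0.13 and did not pass (SE; limma, adjusted p = 0.322). KO/ERRb-wt minus KO/mock was -0.93 ± 0.13 and minus WT/mock -0.65 ± 0.13 (limma, adjusted p = 0.00429 and 0.00552). The call against KO/mock ended with the 2 arrays of each clone averaged (0.132), and that against WT/mock without clone 12-3 (0.0590). Of genes with a mean log2 value of at least 6, groups did not overlap for 29.2%, 28.0% and 49.5% in these comparisons. Whether the probe set lies inside the lesion or the viral insert is not known, so it may check neither label. Groups are called by their labels, and every direction given is one between arrays as labelled.

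Kruppel-like factors are transcription factors that bind GC-rich and CACCC-containing DNA through a cluster of zinc fingers at the C terminus. In mouse ES cells Klf2, Klf4 and Klf5 have overlapping roles in self-renewal and in holding the naive state. Klf4 is a target of LIF and STAT3 signalling, and Klf2 protein is destabilised by ERK activity. Klf4 is also one of the factors used to reprogram somatic cells. Klf3 is mainly a repressor that works with CtBP corepressors, and Klf9 is induced by glucocorticoid and thyroid hormone in other cell types.

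The promoters of Klf4, Klf2 and Klf3 are shown because these members were called in at least 1 comparison and because KLF proteins themselves bind GC and CACCC boxes. RefSeq promoters (build GRCm38.p6) were matched for 4 of the 5 members, Klf2, Klf3, Klf4 and Klf9. The 250 bases before each start are written 5′ to 3′ on the gene's strand, with GC boxes (GGGCGG, either strand) and CACCC boxes (CACCC, either strand) in capitals. They lie at chr4:55532476-55532725 (minus strand) for Klf4, chr8:72318812-72319061 (plus strand) for Klf2 and chr5:64803271-64803520 (plus strand) for Klf3. The promoter of Klf5 is named only.
Klf4: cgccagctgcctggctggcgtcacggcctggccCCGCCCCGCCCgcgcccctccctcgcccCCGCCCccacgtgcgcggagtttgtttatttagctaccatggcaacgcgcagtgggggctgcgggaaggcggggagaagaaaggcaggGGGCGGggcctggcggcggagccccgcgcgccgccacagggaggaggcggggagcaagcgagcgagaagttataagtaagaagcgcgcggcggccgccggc
Klf2: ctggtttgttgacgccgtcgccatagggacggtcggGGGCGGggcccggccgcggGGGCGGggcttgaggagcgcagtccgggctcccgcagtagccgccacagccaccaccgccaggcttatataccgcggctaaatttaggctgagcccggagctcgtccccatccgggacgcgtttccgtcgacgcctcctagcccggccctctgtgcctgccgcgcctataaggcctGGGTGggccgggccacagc
Klf3: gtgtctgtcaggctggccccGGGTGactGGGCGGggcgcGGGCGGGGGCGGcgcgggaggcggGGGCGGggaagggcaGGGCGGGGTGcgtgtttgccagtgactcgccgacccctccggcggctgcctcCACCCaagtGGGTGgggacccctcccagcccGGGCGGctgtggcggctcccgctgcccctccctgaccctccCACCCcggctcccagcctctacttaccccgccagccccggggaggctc
The Klf4 stretch held 4 GC boxes and 0 CACCC boxes, that of Klf2 held 2 and 1, and that of Klf3 held 6 and 5, where a GC box and a CACCC box of Klf3 share a base. The Klf9 stretch held 0 GC boxes and 1 CACCC box. Of 32851 RefSeq promoter stretches of the same length, 32.7% held a GC box and 52.0% a CACCC box. The ERR element TCAAGGTCA, searched on both strands with no overlap with either box, was in none of these 4 stretches and in 0.387% of all. G and C made up 74.0% of the Klf4 stretch, 71.2% of that of Klf2, 78.4% of that of Klf3 and 59.6% of that of Klf9, with a median of 52.4% over all stretches.

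On the arrays labelled KO/mock, Klf4 fell by 27.9% and Klf5 fell by 26.8% relative to those labelled WT/mock. Klf2, Klf3 and Klf9 did not pass the test. Klf4 read 9.03 and 9.25 (clone 8-3) and 9.02 and 9.04 (clone 8-4) on the arrays labelled KO/mock, against 9.51 and 9.59 (clone 5-2) and 9.57 and 9.55 (clone 5-5) on those labelled WT/mock. Every KO/mock value lay below every WT/mock value. The difference was -0.47 ± 0.07 (SE; limma, adjusted p = 0.00215).

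Klf5 read 10.55 and 10.60 (clone 8-3) and 10.48 and 10.49 (clone 8-4) on the arrays labelled KO/mock, against 11.01 and 11.06 (clone 5-2) and 10.94 and 10.91 (clone 5-5) on those labelled WT/mock. These groups did not overlap either. The difference was -0.45 ± 0.05 (SE; limma, adjusted p = 8.57e-04). Both calls held with any 1 array left out, where the adjusted p reached 0.00967 for Klf4 and 0.00468 for Klf5. Neither passed when the 2 arrays of each clone were averaged first, leaving 2 clones against 2 (limma, adjusted p = 0.112 and 0.125).

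Of the 5 members, 2 were called in this comparison at an adjusted p under 0.05, both lower, against 5.59% of all 22180 genes (3.47% lower and 2.12% higher). All 5 members had a mean log2 value of at least 6, and among the 9761 genes above that level 10.8% were called, 6.64% lower and 4.20% higher. The median difference of the 5 was -0.223, beside 0.004 over all genes and 0.020 over the genes above that level. The groups did not overlap for 3 of the 5, Klf4, Klf5 and Klf9, a pattern seen in 29.2% of those 9761 genes (lower in 13.1% and higher in 16.1%).

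Klf2 ran the other way without passing. It read 9.53, 9.44, 9.52 and 9.50 on the arrays labelled KO/mock, against 8.98 and 9.09 (clone 5-2) and 9.28 and 9.51 (clone 5-5) on those labelled WT/mock. The WT/mock arrays spread over more than the KO/mock arrays, and the groups overlapped. The difference was 0.28 ± 0.10 (SE; 95% interval 0.06 to 0.50; limma, adjusted p = 0.175). It depended on the WT/mock clone: without clone 5-5 it was 0.46 (limma, adjusted p = 0.00833) and without clone 5-2 it was 0.10 (limma, adjusted p = 0.736). Without WT/mock clone 5-5 replicate 2 alone it was 0.38 (limma, adjusted p = 0.0229).

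Klf3 read 9.26, 9.24, 9.20 and 9.45 on the arrays labelled KO/mock, against 9.51, 9.62, 9.41 and 9.50 on those labelled WT/mock. Its groups overlapped through KO/mock clone 8-4 replicate 2. The difference was -0.22 ± 0.07 (SE; limma, adjusted p = 0.106). Klf9 read 10.26, 10.31, 10.30 and 10.31 on the arrays labelled KO/mock, against 10.47, 10.43, 10.41 and 10.47 on those labelled WT/mock. All of its KO/mock values lay below its WT/mock values, with a difference of -0.15 ± 0.05 (SE; limma, adjusted p = 0.145). Both passed when dim probe sets were left out of the test (limma, adjusted p = 0.0439 for Klf3 and 0.0402 for Klf9) and with a trended robust prior (limma, adjusted p = 0.0437 and 0.0261).

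**Figure D1:**
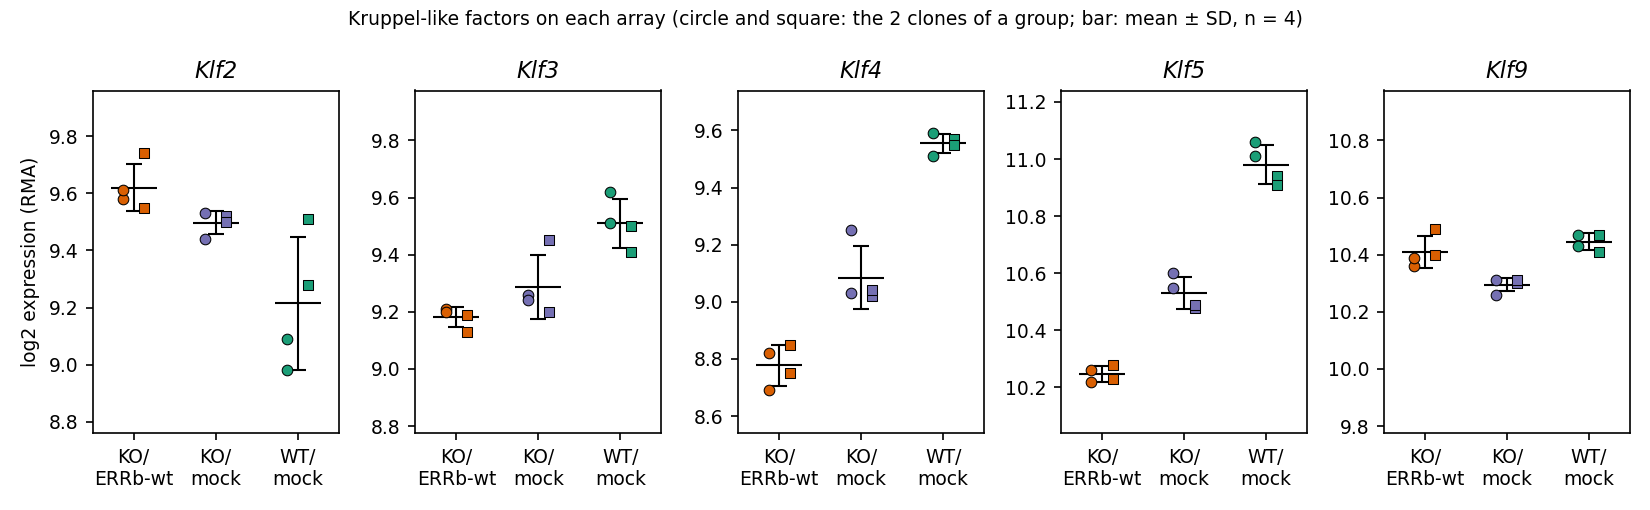
Log2 expression (RMA) of each Kruppel-like factor on the 12 arrays, by group; circles and squares are the 2 clones of a group, and bars are the mean and SD of 4 arrays. For Klf4 and Klf5 the arrays labelled KO/ERRb-wt lie lowest, those labelled KO/mock next and those labelled WT/mock highest without overlap, while Klf2 runs the other way and its WT/mock arrays spread from 8.98 to 9.51.

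The comparison of KO/ERRb-wt with KO/mock asks, as far as the labels can be relied on, what ERRb changes when it is put back. Relative to KO/mock, Klf4 fell by 19.0% and Klf5 fell by 18.0% in KO/ERRb-wt; they did not move back toward WT/mock. Klf4 read 8.69, 8.82, 8.75 and 8.85 on the arrays labelled KO/ERRb-wt, all below the lowest KO/mock value of 9.02. The difference was -0.30 ± 0.07 (SE; limma, adjusted p = 0.0333). Klf5 read 10.26, 10.22, 10.28 and 10.23 on the arrays labelled KO/ERRb-wt, all below the lowest KO/mock value of 10.48, with a difference of -0.29 ± 0.05 (SE; limma, adjusted p = 0.0184).

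Both calls were lost when single arrays were left out. The Klf4 call ended without any 1 of 7 arrays (WT/mock clone 5-2 replicate 1, KO/mock clone 8-3 replicates 1 and 2, KO/mock clone 8-4 replicate 2, KO/ERRb-wt clone 12-1 replicate 1, and KO/ERRb-wt clone 12-3 replicates 1 and 2), with adjusted p up to 0.0732 and differences from -0.33 to -0.25. The Klf5 call ended when either replicate of clone 8-3 or replicate 2 of clone 12-3 was left out, with adjusted p up to 0.0549. With quantile normalization the Klf4 difference was -0.27 (limma, adjusted p = 0.0609). On clone averages neither passed (limma, adjusted p = 0.218 for Klf4 and 0.238 for Klf5).

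Klf2, Klf3 and Klf9 did not pass for KO/ERRb-wt against KO/mock. Klf2 read 9.58, 9.61, 9.55 and 9.74 on the arrays labelled KO/ERRb-wt, all above the highest KO/mock value of 9.53, with a difference of 0.13 ± 0.10 (SE; 95% interval -0.09 to 0.35; limma, adjusted p = 0.544). Klf3 read 9.21, 9.20, 9.13 and 9.19 on the arrays labelled KO/ERRb-wt and overlapped with KO/mock, with a difference of -0.11 ± 0.07 (SE; 95% interval -0.26 to 0.04; limma, adjusted p = 0.438). Klf9 read 10.36, 10.39, 10.49 and 10.40 on the arrays labelled KO/ERRb-wt. These lay above all KO/mock values, and its difference of 0.11 ± 0.05 did not pass (SE; 95% interval 0.00 to 0.23; limma, adjusted p = 0.247). In all, 2 of the 5 members were called, both lower, against 4.45% of all genes (3.20% lower and 1.25% higher) and 8.39% of the 9761 genes with a mean of at least 6 (6.60% lower and 1.79% higher). The groups did not overlap for 4 of the 5, all but Klf3, and for 28.0% of the 9761 genes (lower in 19.2% and higher in 8.79%). The median difference of the 5 was -0.106, beside 0.017 over all genes and -0.039 over the genes with a mean of at least 6.

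For KO/ERRb-wt against WT/mock, 4 of the 5 members were called. Klf4 fell by 41.6%, Klf5 fell by 39.9%, Klf3 fell by 20.4%, and Klf2 rose by 32.5%. This comparison called 20.8% of all genes (12.0% lower and 8.82% higher) and 37.8% of the 9761 with a mean of at least 6, 14.9% higher and 23.0% lower, so a call is common here. The median of the 5 members was -0.329, beside 0.031 over all genes and -0.017 over the genes with a mean of at least 6. The groups did not overlap for 4 of the 5, all but Klf9, and for 49.5% of the genes above that level (lower in 28.2% and higher in 21.3%).

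Klf4 averaged 8.78 ± 0.07 on the arrays labelled KO/ERRb-wt and 9.56 ± 0.04 on those labelled WT/mock (SD, n = 4 each), a difference of -0.78 ± 0.07 (SE; limma, adjusted p = 2.65e-05). Klf5 averaged 10.25 ± 0.03 on the arrays labelled KO/ERRb-wt and 10.98 ± 0.07 on those labelled WT/mock (SD, n = 4 each), a difference of -0.74 ± 0.05 (SE; limma, adjusted p = 1.09e-05). Of the 4 calls these 2 held in every setting tried, including clone averages (limma, adjusted p = 0.0133 and 0.0146). For Klf4 and Klf5 each of the 3 groups differed from both others in the test.

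Klf3 averaged 9.18 ± 0.04 on the arrays labelled KO/ERRb-wt and 9.51 ± 0.09 on those labelled WT/mock (SD, n = 4 each), a difference of -0.33 ± 0.07 (SE; limma, adjusted p = 0.00645). Its call ended without clone 5-2 (adjusted p = 0.0672), without clone 12-3 (0.0557) and on clone averages (0.0727). Klf2 averaged 9.62 ± 0.08 on the arrays labelled KO/ERRb-wt and 9.21 ± 0.23 on those labelled WT/mock (SD, n = 4 each), a difference of 0.41 ± 0.10 (SE; limma, adjusted p = 0.0172). Without clone 5-2 it was 0.22 (limma, adjusted p = 0.146), and the call also ended without WT/mock clone 5-2 replicate 2 (0.0537) or KO/ERRb-wt clone 12-3 replicate 2 (0.0521). For Klf2 and Klf3 the KO/mock mean lay between those of the other groups and passed against neither. Klf9 averaged 10.41 ± 0.06 on the arrays labelled KO/ERRb-wt and 10.45 ± 0.03 on those labelled WT/mock, a difference of -0.03 ± 0.05 (SE; 95% interval -0.14 to 0.08; limma, adjusted p = 0.714).

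**Figure D2:**
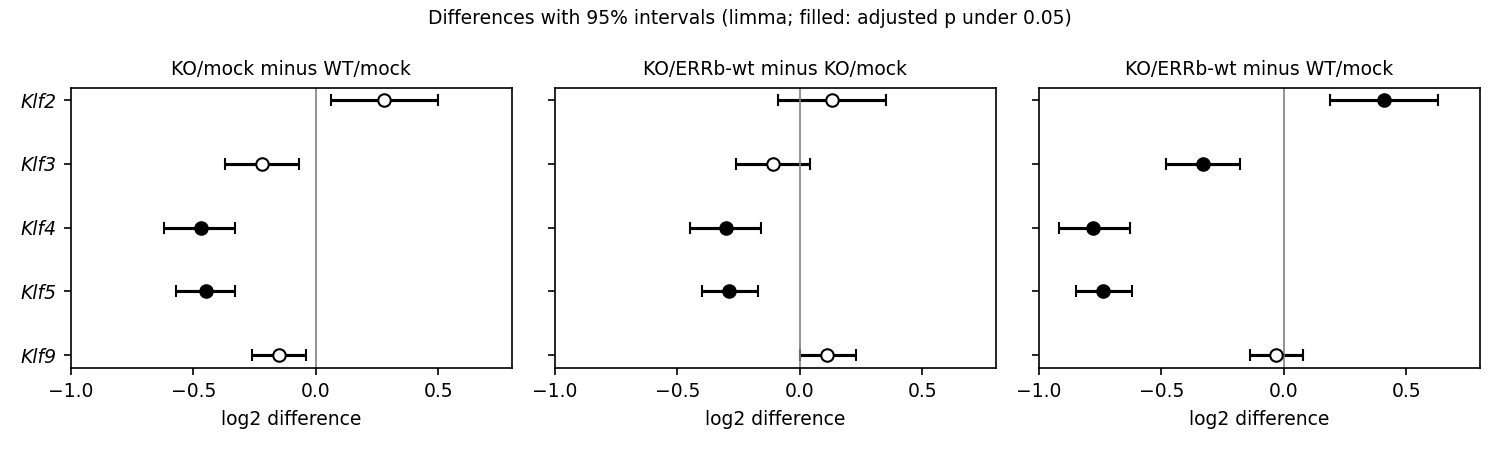
Log2 differences of the 5 Kruppel-like factors in the 3 comparisons, with 95% intervals from the limma fit; filled points passed an adjusted p of 0.05. Klf4 and Klf5 passed in all 3 comparisons and always to the left of 0, with -0.78 and -0.74 in the panel of KO/ERRb-wt and WT/mock, while Klf2 lay to the right.

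Klf5 lies on chromosome 14, most of whose genes were lower on the arrays labelled knockout. For KO/mock minus WT/mock, the 342 other genes there whose mean reached 6 had a median of -0.41, and 73.4% of them were called lower. Klf5, at -0.45, lay within that shift: 136 of the 342, or 39.8%, had a more negative difference. The other members lie on chromosomes whose medians in this comparison were 0.02 (Klf2, chromosome 8), 0.04 (Klf3, chromosome 5), 0.03 (Klf4, chromosome 4) and 0.04 (Klf9, chromosome 19). Of the 633 other such genes on chromosome 4, 8, or 1.26%, had a more negative difference than Klf4. For KO/ERRb-wt minus WT/mock the 342 genes of chromosome 14 had a median of -0.47, and 78.4% of them were called lower. Klf5 was at -0.74 there, and 79 of the 342, or 23.1%, had a more negative difference.

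Set against the median of the 342 genes on the same array, Klf5 lay 2.41 and 2.42 (clone 8-3) and 2.29 and 2.26 (clone 8-4) above it on the arrays labelled KO/mock, and 2.41 and 2.46 (clone 5-2) and 2.32 and 2.31 (clone 5-5) on those labelled WT/mock. The groups overlapped, and the difference was -0.03 (exact two-sided permutation test of 4 against 4 arrays, p = 0.571). On the arrays labelled KO/ERRb-wt Klf5 lay 2.11, 2.11, 2.20 and 2.11 above the chromosome's median, below every array of the other groups. The difference was -0.21 against KO/mock and -0.24 against WT/mock (exact two-sided permutation, p = 0.0286 in each, the smallest that 4 against 4 arrays allow). The test treats arrays of a clone as independent. When only the 20 nearest genes of the chromosome were used, KO/mock minus WT/mock was 0.07, KO/ERRb-wt minus KO/mock was -0.14 and KO/ERRb-wt minus WT/mock was -0.07 (exact permutation, p = 0.171, 0.0571 and 0.171). None of the 3 passed against those nearest genes.

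The 3 nearest measured genes on each side of Klf5 with a mean of at least 6 were mostly lower too. Bora, a mitotic regulator, fell by 0.45 in KO/mock relative to WT/mock, Pibf1 fell by 0.58, Dis3, an exosome ribonuclease, fell by 0.25 and Commd6 fell by 0.47 (all log2). Uchl3, a ubiquitin hydrolase, differed by -0.50 ± 0.19 and did not pass (SE; limma, adjusted p = 0.218), and Klf12 by -0.20 ± 0.12 (limma, adjusted p = 0.448). The Dis3 call ended without replicate 1 of clone 5-5, 8-3 or 8-4 (limma, adjusted p up to 0.0568). In KO/ERRb-wt relative to WT/mock all 6 neighbours were called lower, from -0.22 for Dis3 to -0.95 for Uchl3. So were 78.4% of the chromosome's 342 genes.

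**Figure D3:**
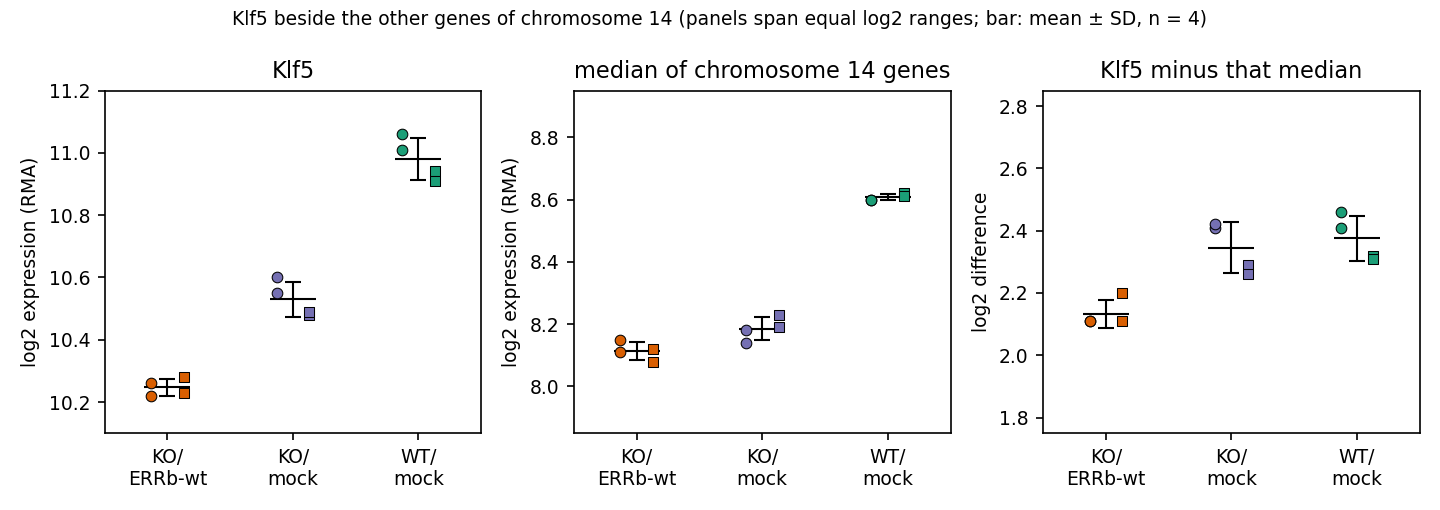
Log2 expression of Klf5 (left), the median log2 expression of 342 other chromosome 14 genes (middle) and their difference (right) on each array; circles and squares are the 2 clones of a group, and bars are the mean and SD of 4 arrays. Both Klf5 and the chromosome median are lower on the arrays labelled knockout, and the difference sets the arrays labelled KO/ERRb-wt (2.11 to 2.20) below KO/mock and WT/mock, which overlap.

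Between the clones of a label no member was called (limma with the 6 clones as groups, 0 of 5 in each label), and 1 member, in WT/mock, had an unadjusted p under 0.05. Calls between clones were rare throughout, at 5 of 40543 probe sets in KO/ERRb-wt, 2 in KO/mock and 0 in WT/mock (2669, 2862 and 3075 at an unadjusted p under 0.05), and nothing is read from the members' 0. That member was Klf2, which averaged 9.40 in clone 5-5 and 9.03 in clone 5-2, a difference of 0.36 ± 0.10 (SE; limma, adjusted p = 0.473). For Klf4 the clones differed by 0.05 within KO/ERRb-wt, -0.11 within KO/mock and 0.01 within WT/mock, and for Klf5 by 0.01 within KO/ERRb-wt, -0.09 within KO/mock and -0.11 within WT/mock, all less than the differences between the groups. With 2 arrays a clone, small differences between clones would not be seen.

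The array measured 12 other Kruppel-like factors. None was called for KO/mock against WT/mock (limma; 2 at an unadjusted p under 0.05, Klf10 and Klf11), and their median difference was -0.057. Between KO/ERRb-wt and KO/mock 1 was called, Klf12, and between KO/ERRb-wt and WT/mock 5 were called, Klf6, Klf7, Klf10, Klf11 and Klf12, all lower. Across all genes these 2 comparisons called 4.45% and 20.8%. Among genes with a mean of at least 6, as 9 of the 12 have, they called 8.39% and 37.8% (6.60% and 23.0% lower). The list's medians were -0.012 and -0.028. The remaining 7 of the 12 did not pass in any comparison: Klf1, Klf8, Klf13, Klf14, Klf15, Klf16 and Klf17, with differences for KO/ERRb-wt minus WT/mock from -0.08 to 0.23.

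Klf12, a repressor that also works through CtBP, lies next to Klf5 on chromosome 14. It read 6.42 and 6.38 (clone 12-1) and 5.86 and 6.14 (clone 12-3) on the arrays labelled KO/ERRb-wt, 6.65, 6.65, 6.85 and 6.91 on those labelled KO/mock, and 6.98, 7.08, 6.90 and 6.92 on those labelled WT/mock. The arrays labelled KO/ERRb-wt lay below all others. It fell by 0.77 ± 0.12 against WT/mock (SE; limma, adjusted p = 9.95e-04), a call that held in every setting tried. Its decrease of 0.56 ± 0.12 against KO/mock (limma, adjusted p = 0.0259) was lost when replicate 2 of clone 8-3, either replicate of clone 8-4 or replicate 2 of clone 12-3 was left out, with adjusted p up to 0.0706. Relative to the chromosome 14 median, which was tried after its values were seen, Klf12 differed by 0.21 for KO/mock minus WT/mock (exact permutation, p = 0.0571) and by -0.49 and -0.28 for KO/ERRb-wt minus KO/mock and minus WT/mock (p = 0.0286 each).

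The other called factors moved by less. For KO/ERRb-wt minus WT/mock the differences were -0.35 ± 0.10 for Klf6, -0.27 ± 0.06 for Klf7, and -0.29 ± 0.07 and -0.25 ± 0.07 for Klf10 and Klf11, which are both induced early by TGF-beta (SE; limma, adjusted p = 0.0278, 0.0124, 0.0176 and 0.0400). Quantile normalization ended the calls of Klf6 and Klf11 (adjusted p = 0.0584 and 0.107). Single arrays ended those of Klf6 (either replicate of clone 5-2, replicate 1 of clone 12-1 or replicate 2 of clone 12-3, adjusted p up to 0.0806), Klf10 (WT/mock clone 5-2 replicate 2, 0.0524) and Klf11 (9 arrays, up to 0.0994), and on clone averages none of these 4 passed. Klf7 had 2 probe sets, of which the brighter was used.

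**Figure D4:**
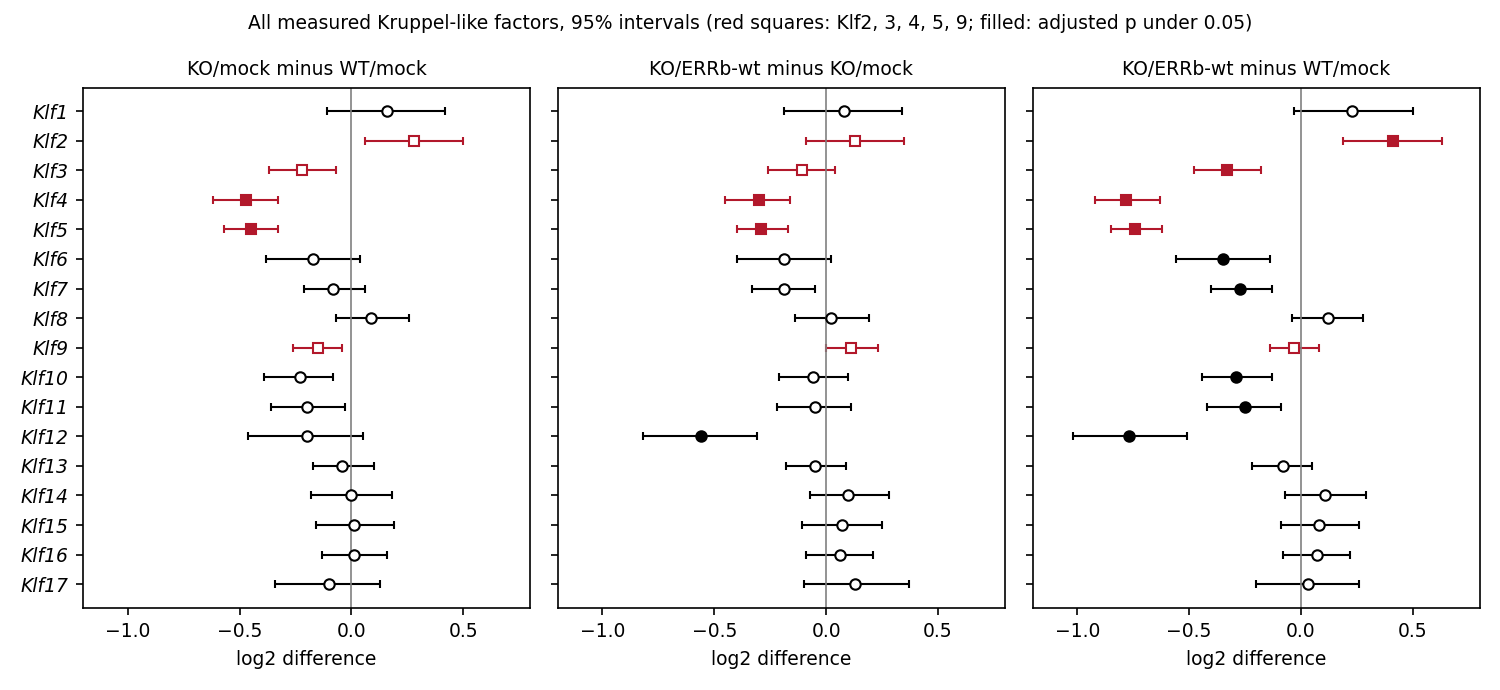
Log2 differences with 95% intervals for all 17 measured Kruppel-like factors in the 3 comparisons; red squares are Klf2, Klf3, Klf4, Klf5 and Klf9, and filled symbols passed an adjusted p of 0.05. In the right panel Klf4, Klf5 and Klf12 lie furthest to the left (-0.78, -0.74 and -0.77), and Klf2 is the only filled symbol to the right of 0.

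The Sp factors share the zinc finger type and bind the same GC boxes. Of 8 measured, 2 were called higher and 0 lower for KO/mock against WT/mock, Sp4 and Sp5, and 2 higher and 0 lower between KO/ERRb-wt and WT/mock, Sp5 and Sp8. Of all genes 2.12% and 8.82% were called higher in these comparisons. Among genes with a mean of at least 6, as 4 of the 8 have, the shares were 4.20% and 14.9%. Sp8 was dim, averaging 5.11 in KO/ERRb-wt and 4.44 in WT/mock. None of the 8 was called by limma between KO/ERRb-wt and KO/mock (4 at an unadjusted p under 0.05). Sp5, a Wnt target, averaged 7.22 ± 0.19 on the arrays labelled KO/ERRb-wt, 6.71 ± 0.19 on those labelled KO/mock and 6.11 ± 0.27 on those labelled WT/mock (SD, n = 4 each). It rose by 1.10 ± 0.15 for KO/ERRb-wt minus WT/mock (SE; limma, adjusted p = 3.94e-04). Its call for KO/mock minus WT/mock, at 0.59 ± 0.15 (limma, adjusted p = 0.0442), ended without any of 9 arrays, with adjusted p up to 0.123. That of Sp4, at 0.34 ± 0.07 (limma, adjusted p = 0.0189), ended without either replicate of clone 5-2, replicate 1 of clone 8-3 or replicate 2 of clone 8-4 (up to 0.0697).

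Among 13 other transcription factors of the naive network, 2 were called lower and 0 higher for KO/mock against WT/mock, 5 lower and 0 higher between KO/ERRb-wt and KO/mock, and 5 lower and 2 higher between KO/ERRb-wt and WT/mock. The 13 include Esrrb itself, which is 1 of the 5 lower in both comparisons of KO/ERRb-wt. Of all genes with a mean of at least 6, 6.64%, 6.60% and 23.0% were called lower in the 3 comparisons. The shares called higher were 4.20%, 1.79% and 14.9%. The T-box factor Tbx3 had the same order of groups as Klf4 and Klf5, averaging 8.81 ± 0.09 on the arrays labelled KO/ERRb-wt, 9.59 ± 0.04 on those labelled KO/mock and 10.02 ± 0.06 on those labelled WT/mock (SD, n = 4 each). So did Prdm14, a repressor of differentiation genes, at 6.94 ± 0.17 in KO/ERRb-wt, 7.34 ± 0.14 in KO/mock and 7.77 ± 0.07 in WT/mock. The Prdm14 call between KO/mock and WT/mock (limma, adjusted p = 0.0236) ended without either replicate of clones 5-2 and 8-4 or replicate 1 of clone 5-5 (up to 0.0722), and that between KO/ERRb-wt and KO/mock (0.0418) without any 1 of 10 arrays (up to 0.109). Nanog was called lower in KO/ERRb-wt than in either other group, at -0.25 against KO/mock and -0.40 against WT/mock. The call against KO/mock ended without either replicate of clone 8-3 (limma, adjusted p up to 0.0582). Tfcp2l1 was also called lower in KO/ERRb-wt, at -0.23 against KO/mock and -0.21 against WT/mock (limma, adjusted p = 0.0413 and 0.0169). Its call against KO/mock ended without any 1 of 11 arrays (up to 0.102), and that against WT/mock without clone 5-5 or 12-1 (up to 0.0960). For KO/ERRb-wt minus KO/mock, quantile normalization ended the calls of Prdm14 and Tfcp2l1 (limma, adjusted p = 0.0773 and 0.0681). The 2 factors called higher against WT/mock were the nuclear receptor Nr5a2 at 0.57 ± 0.09 and Sall4 at 0.37 ± 0.07. Pou5f1, Sox2 and Zfp42 were not called in any comparison.

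Of 15 genes of the LIF, ERK and ERK5 routes, 2 were called lower for KO/mock against WT/mock, 1 higher and 1 lower between KO/ERRb-wt and KO/mock, and 2 higher and 4 lower between KO/ERRb-wt and WT/mock. Of all genes with a mean of at least 6, as 14 of the 15 have, 10.8%, 8.39% and 37.8% were called in these comparisons. Jak1, the kinase that carries the LIF signal to STAT3, differed by -0.70 ± 0.08 for KO/ERRb-wt minus WT/mock (SE; limma, adjusted p = 1.48e-04). Its difference of -0.37 ± 0.08 in KO/mock relative to WT/mock (limma, adjusted p = 0.0219) lost its call without any of 6 arrays (up to 0.0766), and that of -0.32 ± 0.08 for KO/ERRb-wt minus KO/mock (0.0482) without any of 11 (up to 0.121). The receptor genes Lifr and Il6st, Stat3, and Socs3, a STAT3 target, were not called in any comparison, with differences from -0.19 to 0.15. Spry4, an ERK feedback inhibitor, rose by 0.83 ± 0.18 for KO/ERRb-wt minus WT/mock (limma, adjusted p = 0.00863), and Spry2, on chromosome 14, fell by 0.45 ± 0.09 (0.00529).

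Of 6 ubiquitin ligases that act on KLF proteins, limma called none for KO/mock against WT/mock (2 at an unadjusted p under 0.05), and Wwp1, which marks Klf5 for degradation, fell by 0.41 ± 0.07 for KO/ERRb-wt minus KO/mock and by 0.64 ± 0.07 for KO/ERRb-wt minus WT/mock (SE; limma, adjusted p = 0.0122 and 1.18e-04). Wwp1 was the 1 ligase called against KO/mock, beside 8.39% of genes with a mean of at least 6, as 5 of the 6 have. Against WT/mock 1 was called higher and 2 lower, beside 14.9% and 23.0% of such genes and 8.82% and 12.0% of all genes. Fbxo32, the dim 1, averaged 4.84 in KO/ERRb-wt and 4.46 in WT/mock, a rise of 0.38 ± 0.08 (limma, adjusted p = 0.00885). Its call ended without clone 5-2 or clone 12-1 (up to 0.0902). Btrc fell by 0.29 ± 0.08 (0.0252), a call that ended without any 1 of 5 arrays (up to 0.0726). Of 7 cofactors, limma called none for KO/mock against WT/mock (2 at an unadjusted p under 0.05). Between KO/ERRb-wt and KO/mock 1 was called, the deacetylase Hdac2 at -0.23 ± 0.05 (SE; limma, adjusted p = 0.0359). That call ended without any 1 of 8 arrays (up to 0.0912). For KO/ERRb-wt minus WT/mock 1 was called lower and 1 higher. Hdac2 fell by 0.36 ± 0.05 and the acetyltransferase Crebbp rose by 0.30 ± 0.08 (limma, adjusted p = 5.99e-04 and 0.0232). The Klf3 partners Ctbp1 and Ctbp2 were not called in any comparison. Crebbp lost its call without replicate 2 of clone 5-2 or either replicate of clone 12-1 (up to 0.0653). Of 6 known targets of KLF proteins, 1 was called lower between KO/mock and WT/mock, the telomerase gene Tert at -0.40 ± 0.07 (limma, adjusted p = 0.00618), and 2 lower and 2 higher between KO/ERRb-wt and WT/mock. Lefty1, a Nodal antagonist that Klf4 activates with Oct4 and Sox2, rose by 0.67 ± 0.16 for KO/ERRb-wt minus WT/mock (limma, adjusted p = 0.0149). Its call ended without clone 5-2 or clone 12-3 (limma, adjusted p up to 0.160) and on clone averages (0.112). Any part of Klf4 in the Lefty1 difference was not tested.

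The genes most like each called member were found by the root mean square difference of their values over the 12 arrays, each gene first centred on its own mean, among 9760 other genes with a mean of at least 6. This is a description of the arrays, which share 3 group labels. Klf5 was the second nearest gene to Klf4, at 0.0718, after Nek4 of chromosome 14 at 0.0715. Tspan14 of chromosome 14, the imprint keeper Zfp57 and the activin receptor gene Acvr1b followed, at 0.0750, 0.0752 and 0.0765. Nearest to Klf5 were Insig1, a regulator of cholesterol synthesis, at 0.0517, Zmym5 and Fndc3a of chromosome 14 at 0.0521 and 0.0564, the glutamine transporter gene Slc1a5 at 0.0571 and the phosphatase gene Dusp16 at 0.0578. Of the 50 genes nearest to Klf5, 19 lie on chromosome 14, or 38.0%, where the candidates had 3.50% on that chromosome. Of the 50 nearest to Klf4, 3 lie on its own chromosome 4, or 6.00% against 6.49% of candidates.

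Klf2 had other neighbours, Rpp25l at 0.0638, Kti12 at 0.0646, Jagn1 at 0.0721, Rab35 at 0.0722 and Rfng at 0.0760. Those of Klf3 were Nmnat1 at 0.0562, the Polycomb cofactor gene Mtf2 at 0.0566, Srek1ip1 at 0.0580, Nae1 at 0.0605 and Itm2a at 0.0618. Between the members themselves the difference was smallest for Klf4 and Klf5, at 0.0718, and largest for Klf2 and Klf4, at 0.508.

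The labelled cell type was checked against ES cell markers. Nanog, Zfp42, Sox2 and Pou5f1 averaged 12.34, 11.72, 10.97 and 8.21 on the arrays labelled WT/mock, and the summed log2 level of the 7 markers was at most 70.2 on the arrays labelled KO/ERRb-wt, 70.4 to 70.6 on those labelled KO/mock and 70.3 to 70.9 on those labelled WT/mock, so every KO/ERRb-wt array lay below every other. Dppa5a averaged 4.99 in KO/ERRb-wt, 4.98 in KO/mock and 4.90 in WT/mock, and it was not called in any comparison. Of the 7, Nanog and Utf1 were called lower in KO/ERRb-wt than in both other groups, Utf1 at -0.35 against KO/mock and -0.27 against WT/mock. Of all genes with a mean of at least 6, 6.60% and 23.0% were called lower in these comparisons. Pou5f1 went the other way against WT/mock, at 0.22 ± 0.07, and did not pass (SE; limma, adjusted p = 0.0535). Zfp42 and Dppa5a differed by 0.04 and 0.09 there, and Sox2 and Tdgf1 by -0.07 and -0.01, none of them called. The 5 primed epiblast markers measured summed to 35.8 to 36.9 on the arrays labelled KO/ERRb-wt, 34.6 to 36.0 on those labelled KO/mock and 32.9 to 34.3 on those labelled WT/mock, with KO/ERRb-wt and KO/mock overlapping. The members called, all higher, were the methyltransferase gene Dnmt3b, in all 3 comparisons, and Lef1 in both against WT/mock, while Lef1 differed by -0.05 for KO/ERRb-wt minus KO/mock. Of genes with a mean of at least 6, as 3 of the 5 have, 4.20% were called higher for KO/mock minus WT/mock. For KO/ERRb-wt minus KO/mock and KO/ERRb-wt minus WT/mock 1.79% and 14.9% were called higher. The other 3 primed markers, Fgf5, Otx2 and Pou3f1, were not called in any comparison. Pou3f1 differed by -0.00 for KO/mock minus WT/mock, and Fgf5 averaged 4.79 in KO/ERRb-wt, 4.71 in KO/mock and 4.50 in WT/mock. Otx2 lies on chromosome 14 and differed by -0.16 for KO/mock minus WT/mock and by 0.04 for KO/ERRb-wt minus WT/mock. The medians of that chromosome's genes with a mean of at least 6 were -0.41 and -0.47. Otx2 was not tested relative to them. The Dnmt3b call between KO/ERRb-wt and KO/mock ended without either replicate of clone 8-3 or of clone 12-3 (limma, adjusted p up to 0.0644). The part of primed cells in the differences of the Kruppel-like factors was not tested, and in these bulk samples fewer cells of a type and less RNA per cell cannot be told apart. Primitive endoderm, trophoblast and feeder fibroblast markers gave 0 or 1 call of 6 in each comparison. Of all genes 5.59%, 4.45% and 20.8% were called in the 3 comparisons. Gata4, on chromosome 14, was lower in both against WT/mock, and Sox7, also on chromosome 14, was lower for KO/ERRb-wt minus KO/mock. Cdx2 and Thy1 were higher for KO/ERRb-wt minus WT/mock. Only 2 primitive endoderm and 2 trophoblast markers had a mean of at least 6, so few calls do not show that such cells were absent. The Sox7 call ended without any 1 of 5 arrays (limma, adjusted p up to 0.0796), that of Thy1 without any 1 of 4 (0.0878) and that of Cdx2 without replicate 2 of clone 12-1 (0.0553). The 6 fibroblast markers summed to 28.7 to 29.8 in KO/ERRb-wt, 28.2 to 28.7 in KO/mock and 27.9 to 29.0 in WT/mock, and none had a mean of at least 6.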

How the data were processed

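Biotin-labelled RNA of 12 samples was hybridised to 1 array each, per the labels. The authors deposited log2 values, for which the submitters' processing notes name RMA and Affymetrix Expression Console without versions. RMA includes a normalization between arrays, which can remove a shift common to most genes; the deposited arrays still differ slightly (medians 5.00 to 5.07). Levels of different probe sets cannot be compared. Precision is limited by the number of arrays and clones: p-values measure the spread between 4 arrays from 2 clones a group.

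Of 41345 probe sets, 802 exact copies of another row were dropped. The other 40543 were fitted together with limma 3.58.1 (statmod 1.5.0, R 4.3.3), with the 3 groups as terms and clone as a random block (consensus correlation 0.0286), so arrays of a clone count as nearly independent. Tests were two-sided, with Benjamini-Hochberg adjustment across the 40543 and a threshold of 0.05. A gene was read from its 1-symbol probe set with the highest mean, using platform annotation that can be old. Chromosomes and gene order came from RefSeq (GRCm38.p6). The fit was also run on simulated data. Those arrays were drawn independently, without clone effects, so the run cannot show how the fit treats arrays that share a clone. Members, lists and the naming rule (the members, Esrrb, up to 4 genes a list by adjusted p, and genes nearest in pattern or position) were chosen with earlier results of these data known. Other list genes, such as Tfcp2l1, Lifr, Il6st, Stat3, Socs3, Ctbp1, Ctbp2 and single markers, were named after their values were seen.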

Additional observations from a re-analysis of the deposited data

Results flagged for a closer look

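Klf4 on the KO/mock array of clone 8-3 replicate 2 read 9.25, far above the other 3 KO/mock arrays (9.03, 9.02 and 9.04), by Dixon's criterion for 4 samples. The array was still below every WT/mock array. Of 21 sets of 4 arrays checked this was the only one, and chance gives about 1 in 20. Without this array the Klf4 difference for KO/mock minus WT/mock was -0.53, and that for KO/ERRb-wt minus KO/mock was -0.25 (limma, adjusted p = 0.0695).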

How the results depend on the processing

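Other settings were no clone block, clone averages, a replicate block, only the 2 groups compared, dim probe sets (mean under 6) left out, quantile normalization, median centring, array weights, a trended robust prior, and each array or clone left out. The cause of a change was not tested. For KO/mock minus WT/mock, clone averages gave -0.47 for Klf4, -0.45 for Klf5 and 0 members called. Leaving out dim probe sets gave -0.22 for Klf3, -0.15 for Klf9 and 4 members called, and the trended robust prior gave the same 3 values. Klf2 was 0.46 without clone 5-5 and 0.21 to 0.38 with 1 array left out, and without Klf5 (chosen after seeing the data) 1 member was called. For KO/ERRb-wt minus KO/mock, Klf4 was -0.30 on clone averages and with only the 2 groups, -0.27 with quantile normalization, and -0.25, -0.36, -0.28 and -0.33 without clones 8-3, 8-4, 12-1 and 12-3, none of which passed. Klf5 was -0.29 on clone averages and -0.24, -0.28 and -0.29 without clones 8-3, 12-1 and 12-3. With 1 array left out Klf4 ranged from -0.33 to -0.25 and Klf5 from -0.30 to -0.26, with 0 to 2 members called. The count was 0 on clone averages and without clone 8-3, 12-1 or 12-3, and 1 with only the 2 groups, with quantile normalization, without clone 8-4 and without Klf5. For KO/ERRb-wt minus WT/mock, Klf2 was 0.41 on clone averages, 0.22, 0.43 and 0.38 without clones 5-2, 12-1 and 12-3, and 0.33 to 0.51 with 1 array left out. Klf3 was -0.33 on clone averages, -0.28 without clone 5-2 and -0.30 without clone 12-3, and Klf9 was 0.00 without clone 12-1. The count was 2 on clone averages and without clone 5-2 or 12-3. Klf5 relative to chromosome 14 was 0.01 for KO/mock minus WT/mock with genes of mean at least 5, 0.07 with the 20 nearest genes and -0.05 to 0.00 with 1 array left out. With the 20 nearest genes KO/ERRb-wt minus KO/mock was -0.14 and KO/ERRb-wt minus WT/mock was -0.07. Over all probe sets 1575, 1324 and 6310 were called in the 3 comparisons, against 12, 0 and 2212 on clone averages. For KO/ERRb-wt minus KO/mock the calls were 394 higher and 930 lower, 436 and 600 with quantile normalization, and 308 and 1148 with median centring. The members had 1 probe set each, so other probe sets gave no value.

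Replicate numbers run within clones, and the labels do not say whether arrays of the same number shared a culture or run. Values of replicate 2 minus replicate 1 correlated between -0.062 and 0.204 over 12 clone pairs of different groups, 3 of them above 0.1. With the replicate block 2, 2 and 4 members were called, the Klf4 difference for KO/mock minus WT/mock was -0.47 (limma, adjusted p = 0.00241), and 1323, 971 and 5862 probe sets were called.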
